A study of Mus musculus with 24 samples.

Results

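Mouse embryonic fibroblasts (MEFs) that lack both LKB1 and its downstream coactivator CRTC2 were compared at rest with wild-type MEFs, to ask what stays changed when both genes are gone. The 6 libraries compared were the 3 labelled as untreated clone A2 of the LKB1/CRTC2 knockout and the 3 labelled as untreated wild type, of 24 libraries in 8 groups of 3. All were immortalized 3T3 MEFs, a line of fibroblasts that grows without limit in culture. The other untreated groups were MEFs knocked out for LKB1 alone (Lkb1-/-) and clone A1, a further LKB1/CRTC2 knockout, and each of these 4 kinds of cells was also stimulated with IL-1β for 6 hours. Clone A2 is a single cell clone obtained from the Lkb1-/- MEFs by CRISPR-Cas9 editing of the first exon of Crtc2, so that every A2 library carries both knockouts. Its cells therefore share 1 founder, and the wild-type and LKB1-deficient MEFs are separate lines, so that an effect of the missing genes and a difference between lines cannot be told apart in this comparison. The labels number the replicates but do not say whether they were separate cultures, and p-values measure the spread between these libraries only.

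LKB1 (encoded by Stk11) is a kinase that switches on AMPK and a group of related kinases, among them the salt-inducible kinases (SIKs). SIKs phosphorylate the CRTC coactivators and hold them in the cytoplasm. Without LKB1, CRTC2 can enter the nucleus and assist the transcription factor CREB at genes that carry a cyclic AMP response element. Fibroblasts build the extracellular matrix and release cytokines and chemokines that call in immune cells.

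Gene expression was read from counts of RNA-seq read pairs per gene. Levels are given as counts per 1000000 counts of a library (CPM) after scaling between libraries, fold changes as log2 of clone A2 over wild type with their standard error (SE), and a gene was called when its false discovery rate (FDR) in edgeR's quasi-likelihood test was under 0.05. Of 55471 genes, 17522 had enough counts to be tested. Clone A2 had 5727 genes called higher (32.7% of those tested) and 4887 called lower (27.9%). The fold change passed 2-fold in 3029 of the higher and 1502 of the lower genes (genes at 0 in a group counted by their lower bound), and the median over all genes tested was 0.051. With most genes called, a call alone says little about any 1 gene, sizes are given throughout, and the counts of gene lists are to be read beside these shares. Against the same wild-type libraries 55.9% of genes were called in Lkb1-/- MEFs and 55.4% in clone A1.

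**Figure D1:**
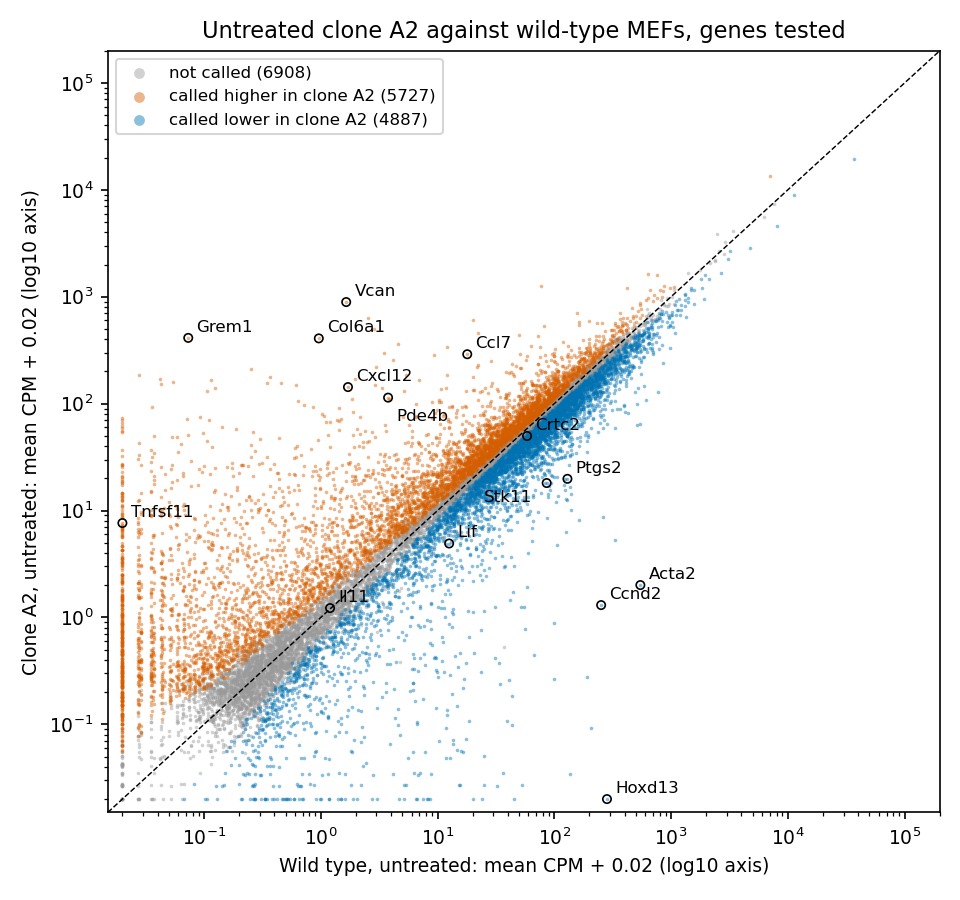
Mean CPM of the 3 untreated clone A2 libraries (vertical) against that of the 3 untreated wild-type libraries (horizontal) for each gene tested, both on a log10 axis after adding 0.02 CPM, so that genes at 0 lie on the edges. Orange points are the 5727 genes called higher in clone A2, blue points the 4887 called lower and gray points those not called. Named genes such as Vcan and Acta2 lie far from the diagonal, while Il11 and Crtc2 lie close to it.

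Library sizes were 40011408 to 46677840 counts on genes in wild type and 42828182 to 45379872 in clone A2, which puts the detection floor of 3 counts in each library at 0.0714 and 0.0653 CPM. Intervals and floors cover counting error only. Replicate 1 had the highest share of read pairs outside annotated genes and of mitochondrial counts in each of the 4 untreated groups, and in clone A2 it lay furthest from the others, with 14.2% of its read pairs outside annotated genes against 9.35% and 8.49% in the others and 7.91% to 9.31% in wild type, and with 4.32% of its gene counts on mitochondrial genes against 2.0% and 1.49%. In wild type the mitochondrial share was 3.11% in replicate 1 and 1.92% and 1.87% in the others. Without this A2 library 5421 genes were called higher and 5142 lower. Replicate 3 of wild type stood apart, in genes induced by interferon. The counts and median of that list, and values of some of these genes, are given with and without it. Of 8 tested fibroblast markers 4 were called higher in clone A2 (Pdgfra, Pdgfrb, Dcn and Fn1) and 2 lower (Col1a2 and Vim). Col1a1 was abundant in both groups (2378 ± 482 and 2147 ± 600.4 CPM, mean ± SD, n = 3), whereas Thy1 and Lum were at or near 0 in all 6 libraries. Of the defining markers of other cell types, Ptprc of leukocytes, Cdh5 of endothelium, Myod1 of muscle, Sox10 of glia and Adipoq of fat cells stayed at or under 0.110 CPM in every one of the 6. The 4 tested leukocyte and macrophage markers were all called higher in clone A2, at a summed 8.43 to 9.91 CPM against 2.99 to 4.18 CPM in wild type, most of it Cd68, with Adgre1 at 0. Few markers of the other lists had enough counts to be tested. Among them the endothelial Kdr (2.63), the muscle Des (3.48) and the adipocyte Cebpa were called higher, the adipocyte markers at a summed 14.1 to 20.8 CPM against 9.26 to 12.1 CPM. Of 2 tested epithelial markers Epcam was called higher and Krt19 lower, at a summed 0.262 to 0.352 CPM for the list against 2.21 to 3.23 CPM. Of 5 tested cartilage and bone markers 4 were called higher, at a summed 263 to 323 CPM against 114 to 116 CPM. The part of these cell type markers in the results below was not tested. In bulk libraries fewer cells of a type and less RNA per cell cannot be told apart.

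The targeted genes were checked first. Stk11, at chr10:80115803-80130682 on the GRCm38 build, had 84.6, 85.5 and 87.9 CPM in the wild-type libraries and 18.9, 17.4 and 17.9 CPM in clone A2. The groups were far apart, with a log2 fold change of -2.25 (SE 0.070, FDR 1.6e-16), and transcripts at a reduced level remained in every A2 library. Crtc2, at chr3:90254163-90264125, had 61.2, 56.5 and 57.5 CPM in wild type and 50.6, 48.9 and 50.0 CPM in clone A2. Its groups did not overlap but were close, with a log2 fold change of -0.23 (SE 0.066, FDR 0.0049), which was not called after upper quartile scaling (-0.14, FDR 0.14). Against the 82.1, 79.1 and 82.3 CPM of the Lkb1-/- libraries Crtc2 was lower in clone A2 by 0.70 on the log2 scale (FDR 9.9e-08). Editing of an exon can remove the protein and leave the transcript, so that the count of Crtc2 checks the label only in part.

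Genes of the LKB1 complex and of the kinases that LKB1 activates were called lower more often than higher. Of 17 tested, the targeted Stk11 among them, 4 were called higher and 11 lower, with a median log2 fold change of -0.60 beside 0.051 over all genes. Among the LKB1 scaffold genes Cab39 (-0.68) and Cab39l (-0.96) fell, and among the kinases Nuak1 (-1.11), Nuak2 (-0.88), Sik3 (-0.65) and the AMPK subunit gene Prkaa2 (-0.76). Sik1, itself a CREB target, went the other way, from 21.9, 20.1 and 23.6 CPM in wild type to 23.0, 33.8 and 30.7 CPM in clone A2 (0.42, FDR 0.014). This call was lost without A2 replicate 2 (FDR 0.12), A2 replicate 3 (0.055) or wild-type replicate 2 (0.065). Brsk1, a neuronal member of the kinase family, was also higher (1.51). Of the coactivators themselves, Crtc1 was higher (0.59, SE 0.073), as was Ep300 (0.68), the gene of a histone acetyltransferase that works with CREB, while Creb1 (-0.46) and the CREB family repressor Crem (-0.77) were lower.

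Target genes of CREB were called in both directions at rest, at shares near those over all genes. Of 15 tested, 6 were called higher than wild type, 3 lower and 6 were not called (median 0.082), where 60.6% of all genes tested were called. The promoters of 5 genes of the groups described here are shown, since the cyclic AMP response element is where CRTC2 acts through CREB: Areg and Nr4a1, whose level in clone A2 was not told apart from wild type, Dusp1, which was lower, and the cytokine genes Il6 and Cxcl12. They are bases just before the transcription start from RefSeq on GRCm38.p6, read 5′ to 3′ along the gene, with capitals for TGACG or CGTCA, the core of the element on either strand, and for TGACGTCA, the full element, which contains the core on both strands.
Areg (chr5:91139479-91139598, plus strand): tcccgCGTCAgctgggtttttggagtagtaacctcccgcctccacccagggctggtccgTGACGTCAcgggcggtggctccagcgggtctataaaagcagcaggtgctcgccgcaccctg
Nr4a1 (chr15:101266596-101266845, plus strand): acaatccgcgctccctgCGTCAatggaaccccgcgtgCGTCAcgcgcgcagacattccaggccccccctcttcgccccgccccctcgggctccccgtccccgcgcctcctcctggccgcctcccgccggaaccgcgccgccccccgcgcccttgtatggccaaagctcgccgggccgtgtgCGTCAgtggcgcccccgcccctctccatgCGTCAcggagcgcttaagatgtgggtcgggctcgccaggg
Dusp1 (chr17:26508473-26508672, minus strand): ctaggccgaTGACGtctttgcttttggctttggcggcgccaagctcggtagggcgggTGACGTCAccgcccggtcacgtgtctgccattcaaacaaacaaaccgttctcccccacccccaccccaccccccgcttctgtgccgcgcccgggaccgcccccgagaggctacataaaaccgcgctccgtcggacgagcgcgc
Il6 (chr5:30012964-30013113, plus strand): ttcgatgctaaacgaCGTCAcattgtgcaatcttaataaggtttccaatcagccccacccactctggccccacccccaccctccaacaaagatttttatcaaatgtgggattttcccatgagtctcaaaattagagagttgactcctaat
Cxcl12 (chr6:117168415-117168534, plus strand): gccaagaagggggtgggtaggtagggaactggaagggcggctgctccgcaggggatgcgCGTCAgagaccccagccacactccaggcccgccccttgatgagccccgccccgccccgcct
Areg holds the full element 61 bases before the start and Dusp1 holds it 143 bases before, counted to its first base. Over 32851 mouse promoter windows of 250 bases, 1.55% held the full element and 17.8% a core. Of the 15 target genes 13 had a window, and of these 12 held a core, 2 of them the full element. Counted in the same way, 30.1% of the 10887 tested genes with a window held a core and 3% the full element. A core stood before 1 of 5 IL-6 family ligand genes, 2 of 9 CXC and CX3C chemokine genes and 1 of 10 CC chemokine genes. Il6 and Cxcl12 are thus shown as members that hold it, and most of their families do not. A match of letters is a description of the window and not a site of binding.

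The NR4A nuclear receptors, immediate targets of CREB, showed both outcomes. Nr4a1 had 6.72, 5.92 and 4.56 CPM in wild type, 6.35, 5.63 and 5.06 CPM in clone A2 and 12.2, 8.96 and 9.55 CPM in Lkb1-/- MEFs. The wild-type and A2 ranges overlapped (log2 fold change -0.015, SE 0.17, FDR 0.95), while A2 lay below Lkb1-/- (-0.85, FDR 0.0005). Nr4a3 stood at 0.21 against wild type (SE 0.37, FDR 0.65) and -1.72 against Lkb1-/- (FDR 0.00058). Nr4a2 rose above wild type by 0.83 (FDR 0.0012). Areg, the EGF receptor ligand amphiregulin, had 0.491, 0.345 and 0.939 CPM in wild type and 0.766, 0.185 and 0.352 CPM in clone A2, ranges that overlapped at -0.41 (SE 0.48, FDR 0.48). Its Lkb1-/- libraries, at 4.14, 2.04 and 3.52 CPM, lay above both.

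Among targets with over 3 counts in wild type Pde4b had the largest increase. Pde4b, a phosphodiesterase that breaks down cyclic AMP, rose from 2.88, 3.91 and 4.46 CPM in wild type to 103, 122 and 116 CPM in clone A2, a log2 fold change of 4.93 (SE 0.18, FDR 2.0e-15). All clone A2 libraries lay well above wild type, and below the Lkb1-/- libraries (-0.77, FDR 0.00031). The related Pde4d rose by 2.02 and was not told apart from Lkb1-/- MEFs (0.26, SE 0.16, FDR 0.25) unless the replicate number was a block (0.24, FDR 0.021), no filter on low counts was used (0.23, FDR 0.032) or A2 replicate 1 was left out (0.47, FDR 0.0088). Rgs2, an inhibitor of G protein signaling, rose by 2.32 and fell short of Lkb1-/- (-1.04). Ppargc1a, a coactivator of mitochondrial genes, had 2 counts in all in wild type and 0.866, 1.62 and 1.58 CPM in clone A2. Below wild type were Dusp1, a phosphatase that shuts off stress kinases (16.8, 16.2 and 15.9 against 11.0, 12.1 and 10.7 CPM, -0.53), Crem, and the neurotrophin gene Bdnf (-1.14). In the direct test of clone A2 against Lkb1-/- MEFs, in which 17.1% of all genes were called higher and 15.1% lower, 11 of the 15 were called lower and 0 higher, with a median of -0.77 beside 0.024 over all genes.

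**Figure D2:**
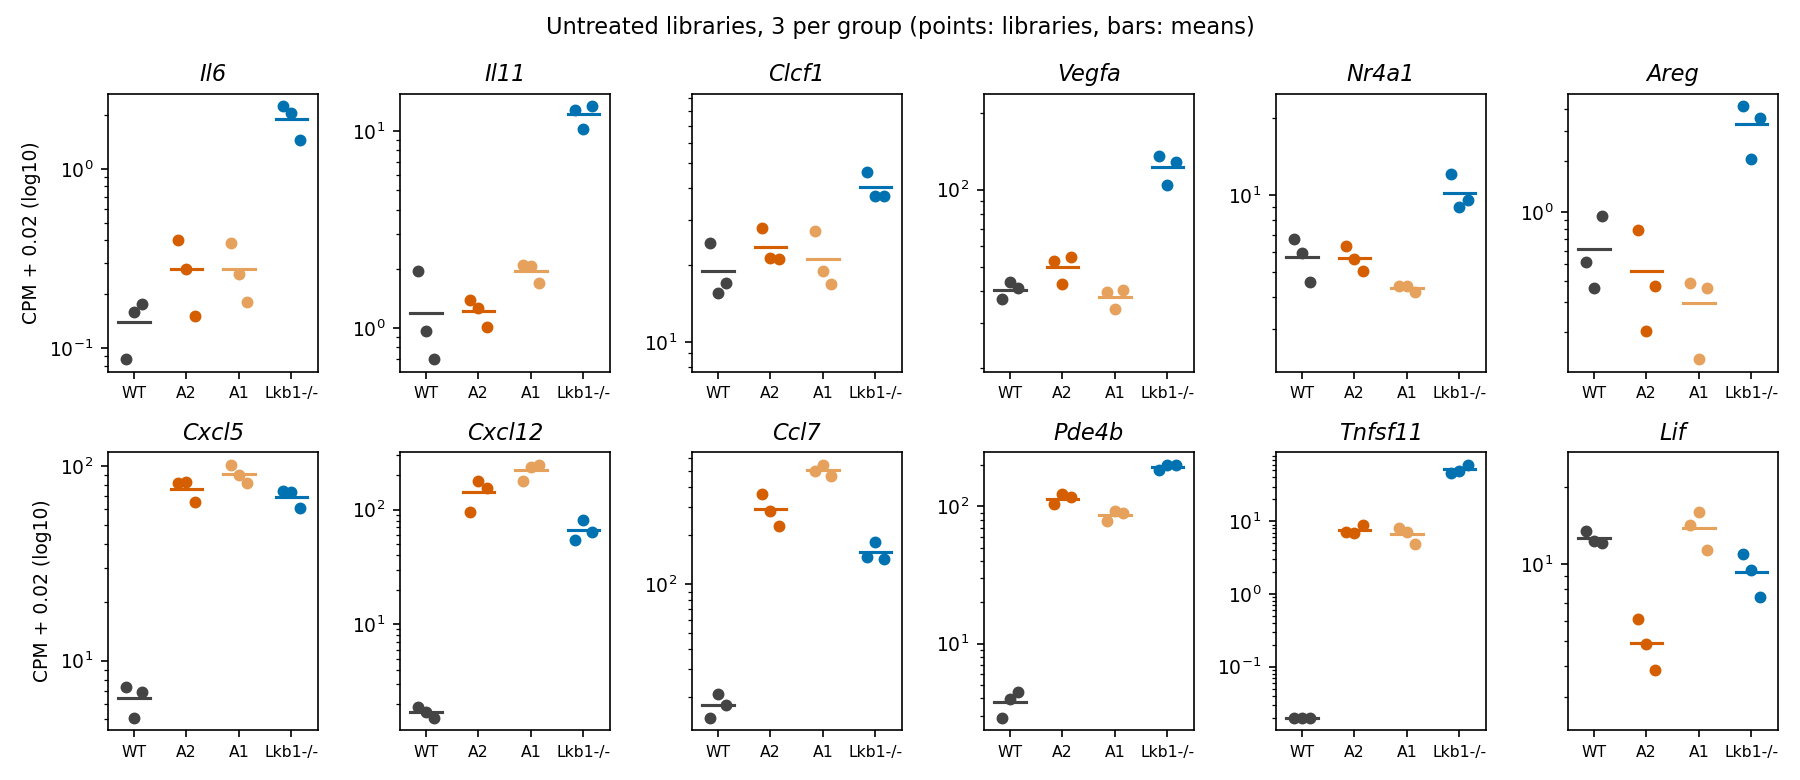
CPM of each untreated library (points; bars mark group means) on a log10 axis after adding 0.02 CPM, for 12 genes in wild-type, clone A2, clone A1 and Lkb1-/- MEFs, 3 libraries a group. In the upper panels (Il6, Il11, Clcf1, Vegfa, Nr4a1 and Areg) clone A2 lies near wild type and under Lkb1-/-, and in the lower panels (Cxcl5, Cxcl12, Ccl7, Pde4b, Tnfsf11 and Lif) it lies away from wild type.

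The IL-6 family ligands, which signal through gp130 and STAT3, showed no call above wild type in clone A2. Of 6 tested, 0 were called higher and 1 lower. Il6 had 0.0670, 0.138 and 0.156 CPM in wild type, 0.383, 0.255 and 0.132 CPM in clone A2 and 2.22, 2.02 and 1.43 CPM in Lkb1-/- MEFs. The first ranges overlapped, at a log2 fold change of 1.11 with a wide error (SE 0.62, FDR 0.13) on 15 and 36 counts in all, and A2 lay under Lkb1-/- (-2.85, FDR 5.4e-06). DESeq2 called Il6 higher than wild type (1.12, adjusted p 0.043). Il11 had 1.92, 0.944 and 0.678 CPM in wild type and 1.37, 1.25 and 0.991 CPM in clone A2, against 12.8, 10.2 and 13.4 CPM in Lkb1-/- MEFs. Wild type and A2 again overlapped (0.016, SE 0.31, FDR 0.97), and the step down from Lkb1-/- was -3.33 (FDR 3.4e-08). Clcf1, a cytokine of the same family, was at 0.31 against wild type (SE 0.25, FDR 0.29) and -0.78 against Lkb1-/- (FDR 0.018), the latter lost without A2 replicate 2 (0.087), A2 replicate 3 (0.088) or Lkb1-/- replicate 1 (0.1).

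Lif, the leukemia inhibitory factor, ended below wild type. It had 13.4, 12.2 and 12 CPM in wild type, 6.04, 4.84 and 3.81 CPM in clone A2 and 10.9, 9.42 and 7.43 CPM in Lkb1-/- MEFs. Against wild type the log2 fold change was -1.35 (SE 0.16, FDR 1.6e-07). No A2 library reached the lowest wild-type library. Clone A1 had 14.2, 16 and 11.3 CPM, so that the clones differed (-1.49 for A2 over A1, FDR 3.5e-07). On the receiving side, of 11 receptor and feedback genes 6 were called higher and 2 lower. The oncostatin M receptor gene Osmr rose from 28.9, 25.7 and 31.4 to 209.7, 280.3 and 263 CPM (3.13), and Socs3, the feedback inhibitor induced by STAT3, rose by 1.90. The receptor gene Il6ra fell by 0.66 on the log2 scale and the kinase gene Jak1 by 0.65.

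Vegfa, the angiogenic growth factor, was not called against wild type either. It had 37.3, 43.5 and 41.1 CPM in wild type, 52.6, 42.7 and 54.6 CPM in clone A2 and 135, 104 and 128 CPM in Lkb1-/- MEFs. The wild-type and A2 ranges overlapped (0.30, SE 0.15, FDR 0.09, or 0.048 when only these 6 libraries were fitted), and the difference from Lkb1-/- was -1.29 (FDR 1.4e-06). Of 16 tested genes of the VEGF and PDGF families 7 were called higher and 5 lower, beside 32.7% and 27.9% over all genes tested. The receptor Pdgfra carried the largest change, from 3.71, 5.66 and 4.36 to 255, 339.9 and 480.3 CPM (6.29), and the VEGF receptor Flt1 fell by 2.80. Tnfsf11, which encodes RANKL, the driver of osteoclast formation, lay between wild type and Lkb1-/-. It had no count in any wild-type library, 7.13, 6.81 and 8.92 CPM in clone A2 and 46.8, 49.9 and 60.1 CPM in Lkb1-/- MEFs, so that A2 was at least 107-fold higher than the wild-type floor and lower than Lkb1-/- by 2.78 on the log2 scale (FDR 2.5e-06). Its decoy receptor gene Tnfrsf11b also went from no count to 4.35, 9.38 and 7.0 CPM.

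Several chemokines stayed well above wild type. Of 10 tested CXC and CX3C chemokines 6 were called higher and 1 lower (median 1.22), and of 11 CC chemokines 4 were higher and 3 lower (median 0.35), the latter close to the 32.7% and 27.9% over all genes tested. Cxcl5, which attracts neutrophils, had 7.30, 5.09 and 6.86 CPM in wild type and 82.0, 82.5 and 65.1 CPM in clone A2 (3.58, SE 0.19, FDR 8.4e-13). Its Lkb1-/- libraries had 74.2, 73.3 and 60.9 CPM, and the test of A2 against Lkb1-/- gave 0.14 (SE 0.16, FDR 0.57). Cxcl12, the stromal factor that retains blood stem cells and lymphocytes, rose from 1.88, 1.68 and 1.51 to 95.3, 179 and 155 CPM (6.39, SE 0.34, FDR 9.9e-13) and exceeded Lkb1-/- MEFs as well (1.11, FDR 0.0019). The monocyte attractants moved the same way. Ccl2 had 78.1, 86.6 and 84.3 CPM in wild type and 314, 302 and 235 CPM in clone A2 (1.77), and Ccl7, its neighbor on chromosome 11, 15, 20.9 and 17.9 against 359.6, 281 and 229 CPM (4.01). Every A2 library was above every wild-type library for both, and both were also above Lkb1-/- (0.57 and 0.88). Such neighboring genes share sequence, and reads that fit several of them were not counted by the authors.

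Smaller or opposite changes completed the chemokines. Cxcl1 rose by 0.73 (FDR 0.0064), a call lost without A2 replicate 1 (FDR 0.069) or wild-type replicate 3 (0.054). Cxcl2 had no count in wild type and 0.665, 0.857 and 0.594 CPM in clone A2, at least 9.87-fold higher. Cxcl14, a chemokine of epithelial and stromal tissue, went from no count to 3.61, 4.56 and 4.67 CPM. Cxcl10, a target of interferon, fell by 2.20 (-1.70 as a log2 fold change without wild-type replicate 3), with 5.07, 7.32 and 14.7 CPM in wild type, where replicate 3 was highest, and 2.08, 2.34 and 1.45 CPM in clone A2. Ccl20 and Ccl28 were lost, with no count in clone A2 against means of 0.963 and 0.985 CPM in wild type.

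Genes of the IL-1 family and its proximal signaling were called in both directions at rest. Of 15 tested, 8 were higher and 4 lower, beside 32.7% and 27.9% over all genes. The receptor genes Il1r1 (0.65) and Il1rap (0.59) rose, as did the inhibitory kinase gene Irak3, from 0.0670, 0 and 0.0782 to 6.31, 9.38 and 11.4 CPM, and the cytokine gene Il18 (5.92). Irak1, a kinase that relays the signal, fell by 0.94. Il1rl1, the receptor of IL-33, differed between the clones as well: it had 250.2, 221 and 197 CPM in wild type, 159, 85.2 and 93.1 CPM in clone A2, 746, 615 and 667 CPM in Lkb1-/- MEFs and 942, 656 and 711 CPM in clone A1. Replicate 1 was the highest of the A2 libraries, and clone A2 the lowest of the 4 groups, below wild type by 0.99 on the log2 scale (FDR 9.5e-05) and below clone A1 by 2.78 (FDR 1.5e-09). Of 16 NF-κB factors and feedback targets 6 rose and 6 fell (median -0.10), not far from the 32.7% and 27.9% over all genes, with Bcl3 at 1.38, Nfkbiz at 0.96 and Vcam1, an adhesion molecule for leukocytes, at -2.99.

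Interferon-stimulated genes were called lower more often than higher in clone A2, and the size of their difference depended on wild-type replicate 3. Of 24 tested, 3 were called higher and 12 lower, with a median log2 fold change of -0.88. Ifit1 had 3.80, 5.69 and 24.4 CPM in wild type and 0.705, 1.30 and 1.58 CPM in clone A2. Irf7, the regulator of interferon production, had 1.43, 2.42 and 14.8 CPM in wild type and was at or near 0 in clone A2. Wild-type replicate 3 was several times above the others for both, and it was the highest of the wild-type libraries for 23 of the 24 genes. The summed level of the list was 285, 364 and 779 CPM in wild type and 286, 429.6 and 465 CPM in clone A2, so that the sums overlapped. After IL-1β it was 450, 695 and 1560 CPM in wild type and 301, 489 and 537 CPM in clone A2. In each of these groups the sum rose with the replicate number, and the reason was not tested. Without wild-type replicate 3 the median was -0.24, with 4 genes called higher and 10 lower. Bst2 (-2.30), Oas1a (-6.23) and Rsad2 (-6.25), which block viruses, were lower, at -1.77, -5.43 and -5.24 without that library. The guanylate-binding protein gene Gbp2 (3.02) and Irf1 (1.25) were higher, at 3.59 and 1.30 without it. All 5 kept their calls.

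Part of the antigen presentation genes and most complement genes rose. Of 10 MHC class I presentation genes 5 were called higher and 0 lower, beside 32.7% and 27.9% over all genes tested. Clone A1 had 1 called higher and 2 lower against wild type (median -0.044), and Lkb1-/- MEFs 4 and 2 (0.043). Against A1 clone A2 had 6 higher and 0 lower (median 0.81), so that the list separates the 2 clones. Nlrc5, the activator of this program, went from 1.63, 1.61 and 3.55 to 17.0, 20.2 and 20.7 CPM (3.10), and the immunoproteasome subunit gene Psmb8 rose by 2.68. With 1 library left out these values ranged over 2.91 to 3.53 and 2.30 to 3.22. Of 8 tested complement genes 6 were higher and 0 lower, with a median of 4.17. C3, the central component, had 2.9, 3.73 and 4.83 CPM in wild type and 78.0, 117 and 134 CPM in clone A2, and 136, 172 and 159.8 CPM in Lkb1-/- MEFs. All A2 libraries were far above wild type (4.85, FDR 5.9e-12), and the test against Lkb1-/- gave -0.51 (SE 0.23, FDR 0.11), which with the replicate number as a block became -0.54 (FDR 6.6e-05) and without a filter on low counts -0.53 (FDR 1.8e-09).

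The prostaglandin pathway changed its cyclooxygenase. Ptgs2, the inducible enzyme, had 173, 118 and 97.8 CPM in wild type, 26.3, 17.8 and 15.3 CPM in clone A2 and 177, 104 and 104 CPM in Lkb1-/- MEFs. Clone A2 lay far below both, at -2.71 against wild type (SE 0.27, FDR 2.1e-08) and -2.69 against Lkb1-/- (FDR 2.3e-07). Ptgs1, the constitutive enzyme, went from 0.849, 0.760 and 0.887 to 97.8, 84.9 and 95.7 CPM (6.80, FDR 9.5e-17). Pla2g4a, which frees the substrate, fell by 1.54. Of 14 tested genes of this pathway 9 were higher and 4 lower (median 2.48, or 1.58 with genes at 0 in a group set to their bound), and the receptor genes Ptger2, Ptger4 and Ptgfr were among the higher ones.

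Genes of the matrix were among those with the largest increases. Of the 12 genes with the largest increase among those with a mean log2 CPM above 3 over the 6 libraries, Vcan, Col6a2, Col6a1, Bgn and Serpine2 encode matrix proteins or their regulators. Vcan, the proteoglycan versican, had 1.52, 1.70 and 1.67 CPM in wild type and 562, 1050.3 and 1063 CPM in clone A2 (9.09, SE 0.34, FDR 3.0e-15). Col6a1 rose from 0.648, 1.47 and 0.704 to 288, 438 and 497 CPM (8.75), Col6a2, its partner chain in collagen VI, by 8.95, and the third chain gene Col6a3 from 0.246, 0.276 and 0.183 to 187, 218 and 228 CPM (9.78). All 3 chains were low in wild type and abundant in clone A2, and Col6a1 and Col6a2 were not told apart from Lkb1-/- (0.17, SE 0.21, and -0.18, SE 0.20). Bgn (7.99) and Fbln1 (6.22) rose likewise. Also in the set were Igfbp4 (8.50), Enpp2 (7.98), which makes lysophosphatidic acid, Ptgs1, Igsf10 (6.47), Dclk1 (6.42) and Cxcl12.

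Not all matrix rose. Of 22 collagen genes 10 were higher and 7 lower, beside 32.7% and 27.9% over all genes tested. Col1a2 fell from 595, 912 and 833 to 79.3, 145 and 158 CPM (-2.61, FDR 8.7e-08) while its partner chain Col1a1 was not called (-0.15, SE 0.21, FDR 0.56). The basement membrane genes Col4a1 (-1.98), Col4a2 (-2.04), Lamc1 (-1.89) and Nid2 (-8.63) all fell, Nid2 from 84.2, 115 and 97.1 CPM to 0.201, 0.232 and 0.308 CPM. Of 32 proteoglycans and matrix glycoproteins 16 were higher and 9 lower. Fbln5, needed for elastic fibers, had 27.8, 46.6 and 34.5 CPM in wild type and 2 counts in all in clone A2, and Ogn and Aspn fell by 3.91 and 7.59. Of 25 matrix proteases and inhibitors 18 were higher and 2 lower, with a median of 1.93. Mmp2 went from 0.0447, 0.138 and 0.104 to 104, 170.3 and 228 CPM (10.74), Mmp3 rose by 5.70 and Mmp13 by 7.10 (6.35 without A2 replicate 3), and Timp3, an inhibitor of these enzymes, by 2.53. The urokinase receptor gene Plaur was among the genes called lower (-2.13).

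Most contractile genes were lower. Of 18 tested, 14 were called lower and 3 higher, with a median of -1.28. Against wild type 13 were lower and 4 higher in Lkb1-/- MEFs (median -0.82), and 8 lower and 5 higher in clone A1 (-0.058). In the direct test of A2 against A1 14 were lower and 1 higher (median -1.13). The drop of the list thus also separates the 2 clones of the same labelled genotype. Acta2, the smooth muscle actin that marks myofibroblasts, had 435, 727 and 476 CPM in wild type, 1.65, 2.69 and 1.63 CPM in clone A2 and 16.6, 19.6 and 11.4 CPM in Lkb1-/- MEFs. It had the largest decrease among genes with a mean log2 CPM above 3, -8.11 against wild type (SE 0.38, FDR 1.0e-13), and was lower than Lkb1-/- too (-3.00, FDR 1.0e-06). Ccn2 (-4.91) and Ccn1 (-3.08), secreted factors that follow YAP and SRF activity, fell, as did Tagln (-5.00), Myl9 (-4.17) and Srf itself (-1.27). Cnn1 (2.91), Mylk (0.94) and Des (3.48) were higher. Of these Acta2 and Ccn2 were among the 12 largest decreases above that mean level, and Tagln and Myl9 lay below it. The others of the 12 were the cyclin gene Ccnd2 (258, 251 and 246 against 1.65, 0.926 and 1.28 CPM, -7.60), Als2cl (-6.86), Dpysl3 (-5.99), Nup210 (-5.46), Cplx2 (-4.95, or -5.59 without A2 replicate 3), Nexn (-4.68), Lipg (-4.47), Arhgdib (-4.33), Mtus1 (-4.31) and Ogn.

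**Figure D3:**
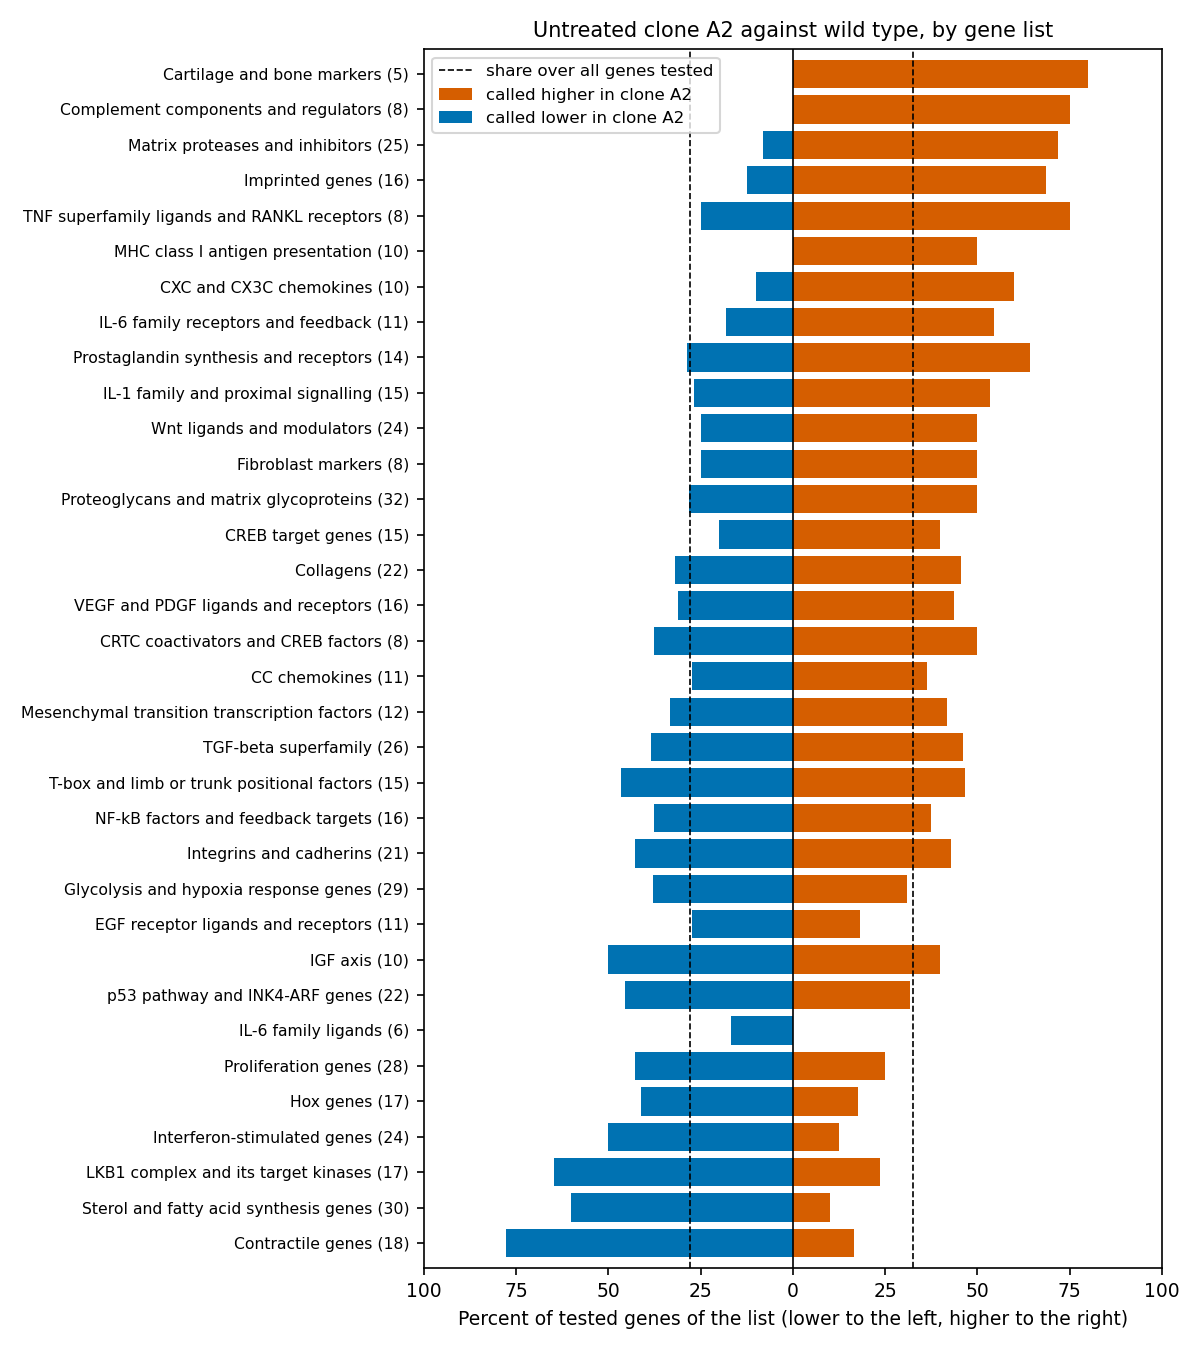
Share of the tested genes of each list that were called higher (orange, to the right) or lower (blue, to the left) in untreated clone A2 than in untreated wild type, in percent, with the number of tested genes in brackets and dashed lines at the shares over all genes tested (32.7% and 27.9%). Matrix proteases and complement genes lie far to the right, contractile and sterol synthesis genes far to the left.

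Genes of the TGF-β and Wnt families were called in both directions, where 32.7% of all genes tested were higher and 27.9% lower. Of 26 TGF-β superfamily genes 12 were higher and 10 lower. Grem1, an antagonist of BMPs, went from 0.0447, 0.115 and 0 to 324, 405 and 508 CPM (12.79, FDR 3.0e-16, and 13.90 without wild-type replicate 2), and another antagonist, Nog, fell by 3.07. Inhba, a subunit of activin, rose by 4.25, while Tgfb2 (-0.98) and Tgfb3 (-1.05) fell. Bmp2 had 0.938, 1.82 and 1.51 CPM in wild type, 36.4, 86.1 and 85.7 CPM in clone A2 and 1.45, 4.41 and 4.76 CPM in Lkb1-/- MEFs. Clone A2 was above both, by 5.61 and 4.30. Of 24 Wnt genes 12 were higher and 6 lower. The ligand genes Wnt10a (-3.53), Wnt10b (-2.82) and Wnt9a (-4.16) fell, and the nuclear effector Lef1 (6.86) and the secreted enhancer Rspo3 (2.48) rose. Sfrp2, a secreted Wnt modulator, had no count in wild type and 12.8, 28.7 and 17.8 CPM in clone A2. Of the IGF axis Igf1r fell by 1.60 and Igf2bp3 rose by 3.94.

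Sterol synthesis genes were lower. Of 30 tested genes of sterol and fatty acid synthesis 18 were called lower and 3 higher, with a median of -0.59. Against wild type 18 were also lower in Lkb1-/- MEFs (median -0.51) and in clone A1 (-0.63). Between A2 and Lkb1-/- 5 were lower and 3 higher. Msmo1, an enzyme of the later steps of cholesterol synthesis, had 370.3, 459 and 429.8 CPM in wild type and 184, 193 and 166 CPM in clone A2 (-1.21, FDR 1.6e-06). Mvd, which acts in the mevalonate steps, fell by 1.5 and Hsd17b7 by 1.79. The groups did not overlap for any of these 3 genes. Srebf2, which encodes the main activator of the pathway, was higher (0.60), as was Fdft1 (0.43, not called without A2 replicate 2, at an FDR of 0.062).

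Positional and sex-linked genes set the lines themselves apart. Of 9 genes of the HoxD cluster the wild-type libraries held 39835 counts and the clone A2 libraries 1. Hoxd13, which patterns the digits, had 265, 289 and 294 CPM in wild type and no count in clone A2, at least 4325-fold lower, nor had it a count in any Lkb1-/- library. The HoxA cluster was read in both, at 251 to 292 CPM summed over 11 genes in wild type and 313 to 398 CPM in clone A2, while HoxB and HoxC had 5 and 3 counts in all in wild type and 4 and 6 in clone A2. Among limb and trunk factors En1 (-7.45) and Lmx1b (-7.98) fell, Gata6 went from 15.5, 16 and 15.9 CPM to 5 counts in all, and Shox2 rose from 0.201, 0.253 and 0.313 to 30.4, 43.0 and 34.5 CPM. Gata4 rose from 2 counts in all to 43.7, 50.8 and 55.7 CPM, a ratio of 3155 (exact 95% counting interval 873 to 26060). The Y-linked genes Uty, Kdm5d and Eif2s3y had no count in wild type and at least 54.6 CPM in every clone A2 library, with Uty at 71.1, 74.6 and 75.6 CPM. Ddx3y had 2 counts in all in wild type and 88.5, 95.7 and 93.5 CPM in clone A2. Xist was near 0 in every library of both. Lkb1-/- and clone A1 libraries carried the same Y-linked transcripts, with Uty at 62.1, 65.9 and 73.2 CPM in Lkb1-/- and 53.1, 56.3 and 59.1 CPM in A1, so that the presence of Y transcripts divides the wild-type line from all 3 LKB1-deficient groups.

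**Figure D4:**
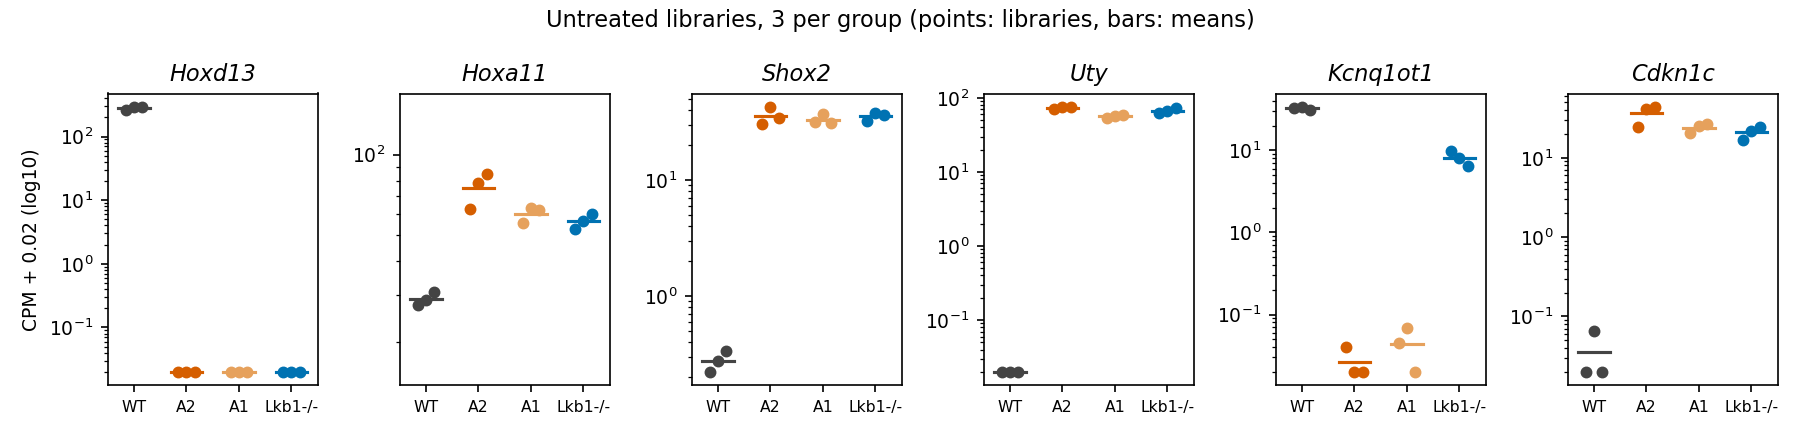
CPM of each untreated library (points; bars mark group means) on a log10 axis after adding 0.02 CPM, for Hoxd13, Hoxa11, Shox2, Uty, Kcnq1ot1 and Cdkn1c in wild-type, clone A2, clone A1 and Lkb1-/- MEFs, 3 libraries a group. Hoxd13 is seen in wild type only, Uty in every group but wild type, and Kcnq1ot1 is at or near 0 in both LKB1/CRTC2 knockout clones.

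Imprinted genes moved as well, with 11 of 16 called higher and 2 lower. Kcnq1ot1, the long noncoding RNA that silences its domain in cis, had 33.0, 33.9 and 30.6 CPM in wild type and 1 count in all in clone A2, while Lkb1-/- MEFs kept 9.78, 8.05 and 6.50 CPM. In the same domain Cdkn1c, a cell cycle inhibitor, had 2 counts in all in wild type and 24.4, 41.7 and 43.9 CPM in clone A2, a ratio of 2293 (exact 95% counting interval 634 to 18940). Plagl1 (4.06) and Peg10 (1.86) also rose.

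Differences were not spread evenly over chromosomes. The median log2 fold change over the tested genes of a chromosome ran from -0.38 on chromosome 1 to 0.61 on chromosome 15 among the autosomes. On chromosome 15 444 of 706 genes were called higher and 54 lower, and on chromosome 1 162 of 1098 were called higher and 516 lower. Genes named above lie on both, such as Osmr and Enpp2 on chromosome 15 and Il1rl1, Ptgs2 and Lamc1 on chromosome 1, and the part of the chromosome-wide shift in their values was not tested. Between clone A2 and its Lkb1-/- parent genotype the medians were also apart, at -0.31 on chromosome 8, -0.31 on chromosome 19 and 0.34 on chromosome 11. No copy number was measured.

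**Figure D5:**
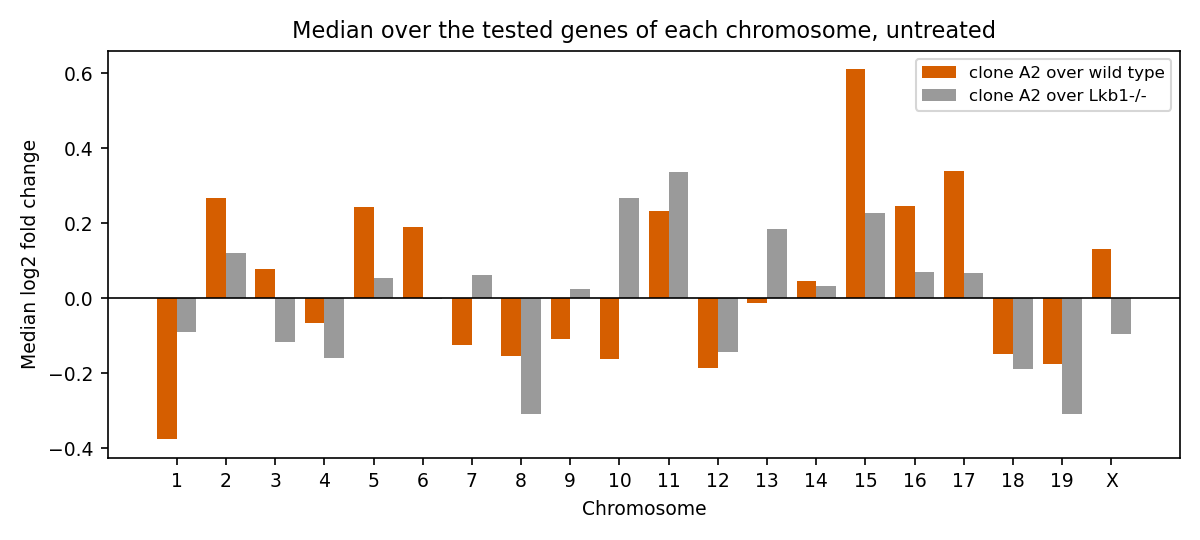
Median log2 fold change over the tested genes of each autosome and the X chromosome, for clone A2 over wild type (orange) and clone A2 over Lkb1-/- (gray), untreated. Chromosome 15 stands highest and chromosome 1 lowest in the comparison with wild type.

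Clone A2 against Lkb1-/- MEFs compares LKB1-deficient cells without and with CRTC2. A2 is 1 clone, so that the loss of CRTC2 and a difference of the clone cannot be told apart here. In all, 3005 genes were called higher and 2650 lower, 647 and 544 of them by over 2-fold. The largest increases, by the same rule on the mean level, were Bmp2, Scube3 (3.78), Phactr1 (3.28), Gnai1 (2.82) and Fam189a2 (2.78), and the largest decreases Crmp1 (-3.32), Dcn (-3.28), Slit3 (-3.19), Hlf (-3.13) and Dpysl3 (-2.86). Dcn, the collagen-binding proteoglycan decorin, had 0.357, 0.483 and 0.391 CPM in wild type, 18, 14.2 and 35.2 CPM in clone A2 and 228, 205 and 222 CPM in Lkb1-/- MEFs. Like Tnfsf11 it thus lay between wild type and Lkb1-/-. Against clone A1, of the same labelled genotype, 5692 genes were called (15.8% higher and 16.7% lower), close to the 5655 against Lkb1-/-. The largest differences from A1 upward were Xlr (3.82), a member of a multigene family whose counts are uncertain, Fam189a2 (3.11) and Mgst1 (2.87). Downward they were Dpysl3 (-4.26), Col8a1 (-3.84) and Sulf1 (-3.68). Dpysl3 and Fam189a2 thus differed from A1 by more than from Lkb1-/-. The clones differed in Il1rl1, Lif, Ptgs2 (-2.15) and Ccl2 (-1.05), and no call was made between them for Il6 (0.033, SE 0.52, FDR 0.97), Il11 (-0.68, SE 0.30, FDR 0.088) or Tnfsf11 (0.20, SE 0.30, FDR 0.67).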

How the data were processed

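RNA from untreated and IL-1β-treated MEFs was sequenced by the authors as 50-base read pairs, trimmed with Trim Galore 0.6 and aligned with STAR 2.7.8a to the mouse genome (GRCm38.p6, GENCODE M24). The deposited files hold STAR's raw counts of uniquely mapped read pairs for every gene, without regard to strand and for either strand, of which those of the reverse-stranded protocol were used. Pairs without a gene made up 26.7% to 34.4% of a library and stayed out of library sizes. A test in edgeR 4.0.16 (legacy quasi-likelihood, TMM scaling, filterByExpr with a minimum count of 10 and total of 15, ~0 + group over all 24 libraries) gave 17522 genes with Benjamini-Hochberg FDR. Its code was also run on simulated counts with fewer libraries, no filter and far fewer genes changed, which does not test the calls made here. Named were the targeted genes, the 12 largest changes in each direction against wild type, 5 against Lkb1-/- and 3 against A1 (FDR under 0.05, mean log2 CPM above 3, groups not overlapping, no predicted gene model), and members of gene lists. Members and lists were chosen with earlier results of these data known. Same-numbered A2 and Lkb1-/- libraries deviated together (r = 0.40, 0.13 and 0.32), so blocked values stand beside results of that comparison whose call they change. Alternatives were other scalings, filters, strand settings, DESeq2 1.42, a replicate block and leaving out each library. No 3 against 3 permutation test can go below p = 0.1. Promoters came from RefSeq. Some genes that the rule named or the lists held are not reported here.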

Additional observations from a re-analysis of the deposited data

Results flagged for a closer look

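The difference between clone A2 and wild type changed with IL-1β in 64 of the genes tested (0.365%), by the test of the interaction of line and treatment in the same edgeR fit (FDR under 0.05). Of 30 tested sterol and fatty acid synthesis genes 9 were among them. Untreated and IL-1β libraries of the 2 lines entered this test, with 3 libraries in each, and the values below are the A2 to wild-type log2 difference after IL-1β minus that at rest. For Hmgcs1 it was -1.19 (FDR 0.021), for Cyp51 -1.13, for Idi1 -1.12, for Msmo1 -1.09, for Insig1 -1.06, for Lss -0.98, for Fdft1 -0.95, for Sqle -0.70 and for Sc5d -0.64, so that each stood lower relative to wild type after IL-1β than at rest. At rest Fdft1 was called higher than wild type, Cyp51 and Sqle were not called and the others were called lower. Insig2, a paralog of Insig1 outside that list, went the other way (0.96, FDR 0.021). Hmgcs1, which makes the first committed intermediate of the pathway, ranged after IL-1β over 589 to 802 CPM in wild type libraries and 149 to 194 CPM in those of clone A2, ranges far apart, against 522, 751 and 684 and 302, 447 and 367 CPM at rest.

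Among secreted factors Lif, lower than wild type at rest, gained under IL-1β (1.12, FDR 0.021), where wild type spanned 20.6 to 23.1 CPM and clone A2 15.9 to 20.4 CPM. Vegfc, a growth factor of lymph vessels, also gained (0.68), while Ccl7 lost (-0.96). Sod2, the mitochondrial superoxide dismutase, gained 1.38 and the transcription factor gene Tbx3 gained 1.45 (FDR 8.8e-07), and Sox9 lost (-0.83). The count of such genes rested on single libraries: it was 112 without untreated A2 replicate 1, 32 and 38 without the others of that group, 37 and 36 without untreated wild-type replicates 1 and 2, 39 and 38 without stimulated A2 replicates 2 and 3, and 29 without stimulated wild-type replicate 2. Of the 15 genes named here beside Insig2, which was not recomputed without single libraries, only Tbx3 kept its call whichever library was left out.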

How the results depend on the processing

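Clone A2 had 10614 genes called against wild type, 9949 to 10563 when 1 library was left out and 8424 (at least 10 counts in every library) to 12022 (replicate number as a block) under the other alternatives. Same-numbered A2 and wild-type libraries had r = 0.26, 0.057 and 0.18, and other pairs -0.23 to 0.067. Deviation shared by replicate number thus shows in part, and the fit without a block leaves it in the spread between libraries. Values with the block against wild type are given only here. Against Lkb1-/- the count went from 5655 to 8042 with the block, and against A1 from 5692 to 8104. Upper quartile scaling moved the median of all genes to 0.14. Of 2122 recomputed values of 143 named genes against wild type, 2093 kept direction and call, and no called gene changed direction. Clcf1 and Vegfa were called with the block (FDR 0.00087 and 0.018) and without a filter on low counts (FDR 0.03 and 0.0067), Vegfa also after upper quartile scaling (FDR 0.045), and Il6 without that filter (FDR 0.033). Against A1 same-numbered pairs had r = 0.28, 0.069 and 0.28, and other pairs -0.28 to 0.033. There Il11 was called with the block (FDR 0.03) and without the filter (FDR 0.0065).

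Some genes that were not called changed sign. Leaving out 1 library gave ranges of -1.16 to 0.039 for Areg, -0.36 to 0.010 for Col1a1, -0.29 to 0.56 for Il11, -0.19 to 0.11 for Nr4a1 and -0.13 to 0.59 for Nr4a3 against wild type, -0.32 to 0.032 for Col6a2 against Lkb1-/- and -0.40 to 0.37 for Il6 against A1. Il11 was -0.010 without the filter, and Nr4a1 0.012 with at least 10 counts in every library and 0.072 after upper quartile scaling. The count of genes whose difference changed with IL-1β was 29 to 112 with 1 library left out, 140 with DESeq2, 394 without the filter, 378 with the block and 20 when only the 4 groups were fitted. The chromosome 1 median was -0.38, -0.48 to -0.37 with 1 library left out and -0.036 without the filter. The causes were not tested. At this depth genes under 10 counts, such as Il6 in single wild-type libraries, carry wide errors.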

Other observations

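Cell cycle genes did not move as 1 group at rest. Of 28 tested proliferation genes 7 rose in clone A2 and 12 fell (median -0.080), where 32.7% of all genes tested were called higher and 27.9% lower. Ccnd1, encoding cyclin D1, which acts in G1, had 333, 323 and 329.7 CPM in wild type and 86.8, 47.3 and 44.3 CPM in clone A2 (-2.47, FDR 5.1e-08), and Cdk6, its kinase partner, fell by 1.84. E2f1 (1.08) and Pcna (0.61), which act in DNA replication, were higher, and Mki67, a marker of cycling cells, was lower by 0.30. Of 22 p53 pathway genes 7 were higher and 10 lower. The cell cycle inhibitor gene Cdkn1a had 22.2, 25.9 and 42.5 CPM in wild type and 8.74, 12.8 and 16.4 CPM in clone A2 (-1.26), and Cdkn2a rose by 0.74.

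Of 29 glycolysis and hypoxia genes 9 were higher and 11 lower, not far from the 32.7% and 27.9% over all genes tested. The EGF, integrin and cadherin counts below are to be read beside the same shares. Hexokinase Hk2 (-1.91) and the glucose transporter gene Slc2a1 (-1.30) fell and the phosphofructokinase gene Pfkm rose (1.66). Gapdh and Actb, often used as reference genes, were lower in clone A2 by 0.51 and 0.34. Of 11 EGF family genes 2 were higher and 3 lower: Nrg1, a ligand of ERBB receptors, rose from 11.1, 10.4 and 9.05 to 98.4, 124 and 102 CPM (3.41), and Hbegf (-1.69) and Ereg (-1.04) fell. Among mesenchymal transcription factors Snai1 (1.76) and Snai2 (2.61) rose and Prrx1 fell from 252, 301 and 288 to 65.0, 65.0 and 65.2 CPM (-2.11). Of 21 integrin and cadherin genes 9 were higher and 9 lower, with Itga8 going from 11 counts in all to 8.16, 10.5 and 14.4 CPM and the laminin receptor subunit gene Itga6 at -1.26. Acan, encoding the cartilage proteoglycan aggrecan, rose from 6 counts in all to 32.1, 17.0 and 14.1 CPM, and Sox9, its regulator, by 2.34.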
